A study of Mus musculus with 10 samples.

Results

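Ligands and receptors of the tumour necrosis factor (TNF) family were followed across 5 groups of mouse RNA-seq libraries. The set held 10 genes of the 19025 in the deposited tables. This set was chosen by gene name, with earlier results of these data known. It comprised 6 ligand genes (Tnf, Lta, Ltb, Cd40lg, Fasl and Tnfsf8) and 4 receptor genes (Tnfrsf8, Tnfrsf4, Tnfrsf9 and Tnfrsf18). All 10 passed the filter on low values, which kept genes with an FPKM (fragments mapped to a gene, scaled to transcript length and library size) of 1 or more in at least 2 libraries.

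Each group had 2 libraries, all from C57BL/6 mice. The groups were B6N-22 embryonic stem (ES) cells kept with LIF on mitomycin C-treated fibroblasts, splenic B220 B cells, splenic CD4 T cells, T helper 2 (Th2) cultures, and Th2 cultures given trichostatin A (TSA), which inhibits histone deacetylases. The B and CD4 T cells came from mice of 6 to 8 weeks and were sorted with magnetic beads to over 98% purity, per the labels. Both kinds of Th2 culture began with splenic CD4 cells and ran for 5 days with IL-2 at 15 ng/ml and IL-4 at 10 ng/ml. TSA at 10 nM was added on day 2 for the last 3 days. The labels do not say whether replicates were separate animals or cultures, or whether animals were pooled, so p-values reflect only how these libraries differ, and that spread may be technical.

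The 2 ES libraries were near copies of each other, and so were the B and the CD4 T pairs, with an SD of the log2 ratio within a pair of 0.0417, 0.0446 and 0.0458. The same SD was 0.307 in Th2 cultures and 0.322 in Th2 cultures with TSA. The first 3 pairs therefore entered as their means, 1 sample each, while both Th2 groups have n = 2, which makes 7 samples. Defining markers matched the labels. Pou5f1 stood at 620.3 and 619.9 FPKM in ES libraries, 8 B cell markers together at 4925 and 4928 in B libraries, and Cd3e at 243 and 246 in CD4 T libraries and between 81.1 and 133 in the 4 Th2 libraries. Other cells were present as well. The ES libraries held Col1a1 of fibroblasts at 145 and 148, and the CD4 T libraries held Lyz2 of myeloid cells at 94.1 and 92.3, and Foxp3 of regulatory T cells at 30.5 and 30.9.

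TNF family ligands are mostly trimeric proteins of the cell surface, some of which are also released, and each binds 1 or a few receptors of the TNF receptor family. Receptors without a death domain recruit TRAF adaptors and switch on NF-kB and kinase signalling, while Fas and the TNF receptor 1 carry a death domain and can trigger cell death. In T cells several receptors of the family act as costimulators that appear after activation, and CD40 ligand is the signal by which helper T cells license B cells. Lymphotoxins made by lymphocytes shape lymphoid tissue.

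Some of the genes lie close together. By the RefSeq annotation of GRCm38.p6, whose chromosome coordinates are those of mm10, Ltb (chr17:35194507-35196305), Tnf (chr17:35199367-35202007) and Lta (chr17:35203165-35205578) are neighbours. A gap of 3061 bases separates Ltb from Tnf and a gap of 1157 bases separates Tnf from Lta. Tnfrsf4 (chr4:156013595-156016613) and Tnfrsf18 (chr4:156026322-156028894) are 9708 bases apart. Tnfrsf9 (chr4:150920155-150946104), Tnfrsf8 (chr4:145267132-145315164) and Tnfsf8 (chr4:63831202-63861508) are on the same chromosome, Fasl (chr1:161780691-161788495) is on chromosome 1, and Cd40lg (chrX:57212143-57224042) is on X.

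Promoters of 5 members are shown, picked by position or by the values of their genes. Ltb, Tnf and Lta are the 3 neighbours, of which Tnf and Lta had the highest ratios with TSA. Tnfrsf8 had the largest rise in Th2 cultures, and Tnfrsf9 had the lowest ratio with TSA. A link between these promoters and the values was not tested. RefSeq promoter entries were found for 9 of the 10 members, all but Cd40lg, and each sequence gives the 250 bases before a transcript start, 5′ to 3′ on the gene's strand. Capitals mark matches, on either strand, to the NF-kB consensus, to AP-1 (TGANTCA), to CRE (TGACGTCA) or to a TATA box (TATAAA).
Ltb, GRCm38.p6 chr17:35194257-35194506, plus strand: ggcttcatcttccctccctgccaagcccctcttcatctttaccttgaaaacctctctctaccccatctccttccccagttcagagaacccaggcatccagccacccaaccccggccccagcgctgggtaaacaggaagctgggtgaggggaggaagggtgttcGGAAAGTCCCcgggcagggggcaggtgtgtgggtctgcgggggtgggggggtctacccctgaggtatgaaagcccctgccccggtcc
Tnf, GRCm38.p6 chr17:35202008-35202257, minus strand: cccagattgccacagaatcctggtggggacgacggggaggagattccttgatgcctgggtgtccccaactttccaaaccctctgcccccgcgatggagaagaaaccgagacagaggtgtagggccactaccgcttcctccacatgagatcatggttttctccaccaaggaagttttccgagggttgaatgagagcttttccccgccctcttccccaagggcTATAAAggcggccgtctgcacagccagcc
Lta, GRCm38.p6 chr17:35205352-35205601, minus strand: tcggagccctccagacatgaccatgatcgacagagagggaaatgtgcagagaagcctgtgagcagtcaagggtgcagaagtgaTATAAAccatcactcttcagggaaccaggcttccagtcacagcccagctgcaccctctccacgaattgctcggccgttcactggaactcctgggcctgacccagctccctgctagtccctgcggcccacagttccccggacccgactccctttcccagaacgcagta
Tnfrsf8, GRCm38.p6 chr4:145315165-145315414, minus strand: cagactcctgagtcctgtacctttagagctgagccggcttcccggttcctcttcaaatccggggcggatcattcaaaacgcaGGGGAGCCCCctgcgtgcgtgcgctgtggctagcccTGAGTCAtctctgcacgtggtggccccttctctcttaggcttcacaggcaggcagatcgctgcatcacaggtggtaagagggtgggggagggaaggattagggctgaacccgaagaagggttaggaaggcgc
Tnfrsf9, second start, GRCm38.p6 chr4:150927749-150927998, plus strand: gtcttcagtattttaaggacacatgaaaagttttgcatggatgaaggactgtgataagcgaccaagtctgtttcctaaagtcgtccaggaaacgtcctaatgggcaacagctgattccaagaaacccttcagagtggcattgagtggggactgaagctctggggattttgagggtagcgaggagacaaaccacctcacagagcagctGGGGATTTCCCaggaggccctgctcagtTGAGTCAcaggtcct

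Matches to the NF-kB consensus were found before the Ltb start, the Tnfrsf8 start and the second Tnfrsf9 start. At Tnfrsf9 overlapping matches share 1 stretch, from 43 to 33 bases before the start, and at Ltb the match ends 78 bases before it. Of 32851 RefSeq promoters, 3.9% held such a match in the same window. AP-1 matches stood in the Tnfrsf8 and second Tnfrsf9 windows, against 6.75% of all promoters. The window before the first Tnfrsf9 start, not printed, held no NF-kB and no AP-1 match. Which Tnfrsf9 start was used in these libraries was not tested. A TATA box match ended 24 bases before the Tnf start and 162 bases before the Lta start used here, against 12.4% of all promoters. The annotated Lta gene extends to chr17:35205578, so most of its window, the TATA box match included, lies within the gene. No CRE match was in any member's window, against 1.55% of all promoters. The NFAT core (GGAAA), left in lower case, was in a window of 8 of the 9 members and in 55.6% of all promoters. These letters are a description of the windows, and no binding was measured in these libraries.

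ES cells had little RNA of these genes. Ltb, which encodes the membrane anchor chain of the lymphotoxin heterotrimer, was the highest, at 3.48 and 3.68 FPKM, and Tnfrsf18 followed at 2.25 and 2.35. The other ligand genes lay between 0.01 and 0.14 in the ES libraries. Tnfrsf8, at 1.13 and 1.11, was the other gene above 1 FPKM.

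Splenic B cells had the lymphotoxin and TNF genes but little of the other ligands. Ltb stood at 403 and 408 FPKM, Lta, the gene of soluble lymphotoxin, at 29.3 and 27.7, and Tnf at 11.8 and 12.2. Cd40lg stood at 0.11 and 0.18, Tnfsf8, the gene of CD30 ligand, at 0.57 and 0.59, and Fasl at 1.16 and 0.99. Among receptors Tnfrsf18, the gene of GITR, was the highest, at 14.9 and 15.04, and Tnfrsf4, the gene of OX40, followed at 3.84 and 4.63. T cell marker genes stood in the B libraries at 0.684% to 2.81% of their CD4 T level, with a median of 1.23%. At that median share of its CD4 T level Tnfrsf18 would stand at 0.824 FPKM and Tnfrsf4 at 0.374. CD8 T and NK cell markers summed to 84.28 to 85.48 FPKM in the B libraries, and myeloid markers to 176.0 to 176.9. The part of T, NK or myeloid cells in the B cell values was not tested.

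CD4 T cells had all 10 genes above 1 FPKM. Ltb was again the highest, at 426 and 431 FPKM. Cd40lg stood at 76.8 and 78.8, Tnfsf8 at 27.5 and 26.9, Tnf at 20.8 and 20.4, Lta at 19.3 and 19.5, and Fasl, the death ligand gene, at 7.95 and 7.69. Among the receptors, Tnfrsf18 and Tnfrsf4 lay above all ligand genes but Ltb and Cd40lg, with Tnfrsf18 at 65.6 and 68.02, Tnfrsf4 at 30.8 and 29.9, Tnfrsf9 (CD137) at 17.0 and 17.1, and Tnfrsf8 (CD30) at 1.28 and 1.74. The 6 ligand genes summed to 578.6 and 584.1 FPKM and the 4 receptor genes to 114.6 and 116.7.

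**Figure D1:**
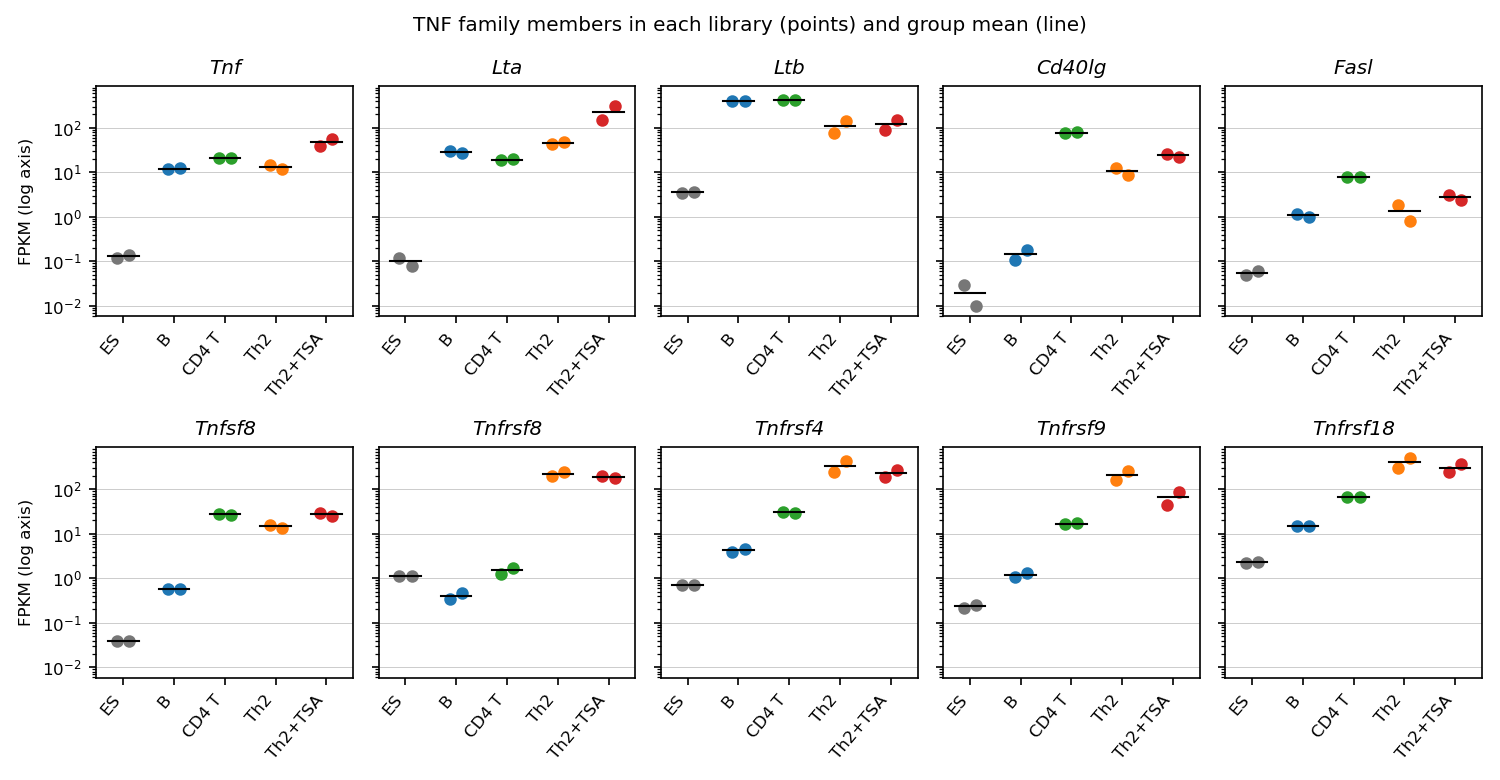
FPKM of each of the 10 genes (log axis) in the 2 libraries of each group, with the group mean as a line. The upper row and Tnfsf8 are ligands. The 4 receptor genes are highest in the Th2 groups, from 44.6 FPKM up, and Ltb and Cd40lg are highest in CD4 T cells.

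CD4 T cells were set beside B and ES cells to place the family between lineages. With 1 sample on each side there is no test. Genes were counted by size: the higher group had to reach 5 FPKM and exceed the other by 2 or more in log2(FPKM + 1). Above B cells by that rule were 6 of the 10 genes, against 2.56% of the 12907 genes measured, and 0 were below, against 1.7% (4.27% in either direction). The largest differences were of Cd40lg (log2 difference 6.10), Tnfsf8 (4.16), Tnfrsf9 (3.04) and Tnfrsf4 (2.58), while Fasl and Tnfrsf18, each at 2.09, were just past the limit. Ltb (0.08), Tnf (0.73) and Lta (-0.53) were not past it. The median over the 10 genes was 2.09, beside 0.05 over all genes. With a pseudocount of 5 in place of 1 the count was 2, Cd40lg and Tnfsf8.

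Against ES cells 9 of the 10 genes passed the rule upward in CD4 T cells, against 10.8% of all genes upward and 22.6% in either direction, and Tnfrsf8 (log2 difference 0.24) did not. In B cells 4 passed upward, against 9.45% of all genes upward and 22.8% in either direction: Ltb (6.47), Lta (4.75), Tnf (3.53) and Tnfrsf18 (2.27), or 2 with a pseudocount of 5. These comparisons share samples and are not independent. None of the 10 was lower by the rule than in ES cells, where 11.9% of genes were lower in CD4 T and 13.4% in B cells. B cell marker genes stood in the CD4 T libraries at 4.71% to 5.99% of their B level, with a median of 5.81%. At that share of its B level Ltb would stand at 23.6 FPKM and Lta at 1.66, beside the 428.5 and 19.4 measured in CD4 T cells.

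Setting Th2 cultures beside CD4 T cells asked how the family differed after culture with IL-2 and IL-4. All 4 receptor genes rose and 3 of the 6 ligand genes fell. Tested were 12367 genes with limma on log2(FPKM + 1), with calls made at an adjusted p under 0.05. Upward calls covered 16.9% of all genes and downward calls 38.1%, so that 7 of 10 members called stand beside 54.9% of all genes. The median log2 difference was 3.46 over the receptors and -1.40 over the ligands, beside -0.28 over all genes. In bulk RNA fewer cells of a type and less RNA per cell cannot be told apart.

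Tnfrsf8, whose product CD30 marks activated lymphocytes, had the largest change. It stood at 202 and 243 FPKM in Th2 cultures against 1.28 and 1.74 in CD4 T libraries. The log2 difference was 6.47 (SE 0.16, limma adjusted p = 0.00093, n = 2 Th2 samples and 1 CD4 T sample). The libraries of the groups lay far apart.

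Tnfrsf9 encodes CD137, a costimulator of activated T cells. Its values were 164 and 263 FPKM in Th2 cultures and 17.0 and 17.1 in CD4 T libraries, a log2 difference of 3.53 (SE 0.58, limma adjusted p = 0.0199). Tnfrsf4, the OX40 gene, stood at 249 and 426 against 30.8 and 29.9 (3.38, SE 0.45, adjusted p = 0.0128). Tnfrsf18, the GITR gene, stood at 295 and 505 against 65.6 and 68.02 (2.51, SE 0.47, adjusted p = 0.0261). For these 3 genes the second Th2 library was higher than the first, and both lay above both CD4 T libraries. Tnfrsf9 and Tnfrsf18 have 3 and 2 transcript rows, and the highest was used.

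Among the ligands Cd40lg fell the most in Th2 cultures, to 12.8 and 8.80 FPKM from 76.8 and 78.8 (log2 difference -2.76, SE 0.27, limma adjusted p = 0.0074). Fasl fell to 1.84 and 0.81 from 7.95 and 7.69 (-1.96, SE 0.35, adjusted p = 0.0234). Tnfsf8 fell to 15.7 and 13.8 from 27.5 and 26.9 (-0.84, SE 0.17, adjusted p = 0.0291). Ltb was at 74.4 and 144 against 426 and 431, but its difference of -2.04 did not pass (SE 0.59, adjusted p = 0.0654). Of the 10 members it had the widest gap between the Th2 libraries, 0.94 on that log2 scale. Tnf (14.4 and 11.7 against 20.8 and 20.4, adjusted p = 0.178) and Lta (44.1 and 47.8 against 19.3 and 19.5, adjusted p = 0.129) did not pass either.

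Several values bear on these calls. Leaving out either Th2 library left 4 members called, without Tnfsf8, Tnfrsf9 and Tnfrsf18. Leaving out either TSA library, which enters the spread only, left Cd40lg as the 1 ligand that fell, ended the call of Tnfrsf18 and added one for Lta, upward. After quantile normalization, where the median of all genes was 0.00 and 3236 genes were higher and 3307 lower in place of 2086 and 4709, Lta (adjusted p = 0.0456) and Ltb (0.022) passed and Tnfsf8 (0.0604) did not. After median-ratio scaling, with 2876 higher and 3418 lower, Tnfsf8 did not pass (0.0983). With the ES, B and CD4 T libraries entered separately 5 ligands had calls downward, Tnf and Ltb included, and Lta passed upward. That fit counts the near-copy pairs as replicates.

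The groups also differ in other ways. Th2 values are mostly 1 per gene, repeated over its transcripts, while those of the other groups differ by transcript, so this difference in the files and the comparison cannot be told apart. B cell markers summed to 275.7 to 279.9 FPKM in CD4 T and 4.45 to 6.46 in Th2 libraries, and myeloid markers to 461.5 to 466.7 and 6.02 to 6.91. At its Th2 level B cell RNA would give 0.0892 FPKM of Ltb. Of 6 regulatory T cell markers 4 were at 1 FPKM or more in Th2 cultures. Their sum was 134.6 to 134.9 in CD4 T and 805.4 to 818.4 in Th2 libraries, most of it Il2ra, which activated T cells also express, and Foxp3 was at 0.56 and 1.12 in Th2 against 30.5 and 30.9. CD8 T and NK cell markers summed to 93.4 to 93.8 and 8.98 to 11.02. The part of these cells in the changes was not tested.

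**Figure D2:**
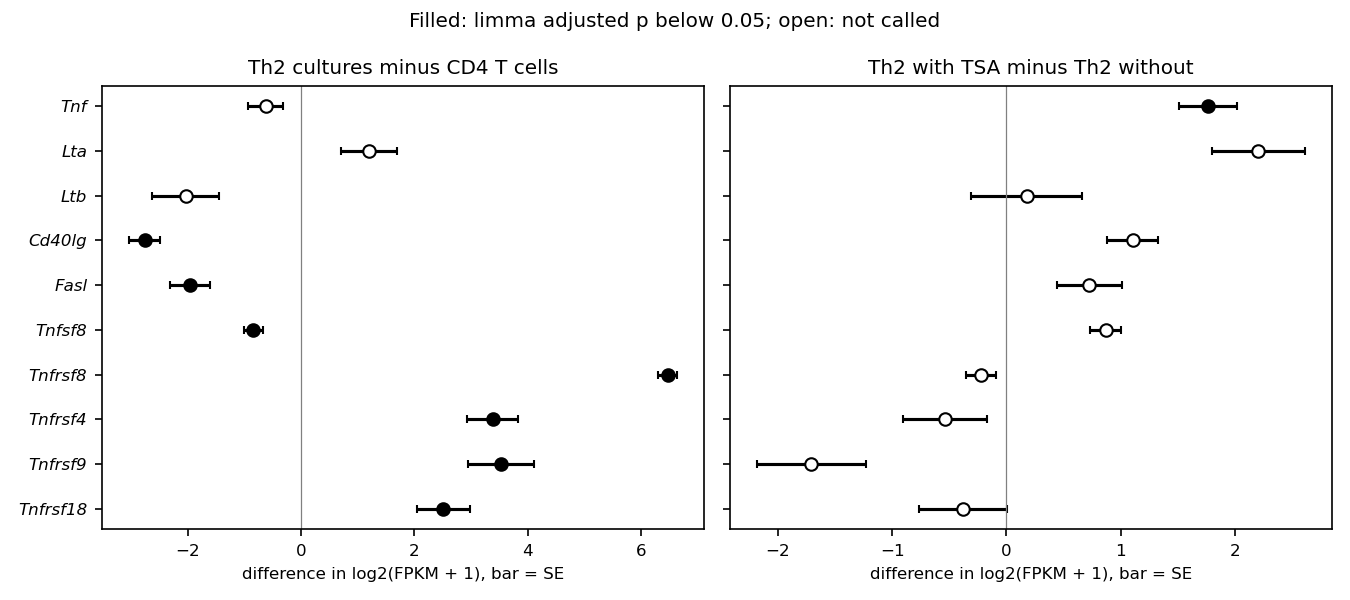
Difference in log2(FPKM + 1) of each gene, Th2 cultures minus CD4 T cells (left) and Th2 with TSA minus Th2 without (right), with its SE as a bar. Filled points passed a limma adjusted p of 0.05: 7 genes on the left, with all 4 receptors to the right of 0, and Tnf alone on the right.

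Th2 cultures with and without TSA were compared to see what the inhibitor did to the family. Tnf rose, and it was the only member that passed, 1 of 10 beside 13.4% of the 12907 genes tested (9.26% higher, 4.14% lower). Tnf stood at 38.4 and 56.4 FPKM with TSA and 14.4 and 11.7 without (log2 difference 1.77, SE 0.25, limma adjusted p = 0.0449, n = 2 against 2). That call sits next to the threshold. The adjusted p over 16 alternatives ran from 0.000161 to 0.224. Leaving out any 1 of the 4 libraries ended it (adjusted p from 0.0844 to 0.224), and over all genes it left at most 259 higher and 14 lower in place of 1195 and 534. The Th2 samples are shared with the comparison against CD4 T cells.

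The ligand genes other than Ltb had higher values in both TSA libraries than in both untreated ones, as did 36.7% of all genes. Lta stood at 152 and 305 FPKM with TSA against 44.1 and 47.8 (log2 difference 2.20, SE 0.40, limma adjusted p = 0.0603). Tnfsf8 was at 29.9 and 25.7 against 15.7 and 13.8 (0.87, SE 0.14, adjusted p = 0.0501), and Cd40lg at 25.5 and 22.5 against 12.8 and 8.80 (1.10, SE 0.22, adjusted p = 0.0686). Fasl was at 3.13 and 2.39 against 1.84 and 0.81 (0.72, adjusted p = 0.183). None of these 4 passed, although the first 3 had an unadjusted p below 0.05. With the 10 libraries entered separately all 4 passed, but that fit counts the near-copy ES, B and CD4 T pairs as replicates. Ltb, the third gene of the cluster with Tnf and Lta, stood at 89.8 and 153 with TSA and 74.4 and 144 without, and its groups overlapped (adjusted p = 0.84).

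The 4 receptor genes had lower means with TSA, and 0 of 4 passed by limma (1 of 4, Tnfrsf9, at an unadjusted p below 0.05). Tnfrsf9 stood at 44.6 and 88.6 FPKM with TSA against 164 and 263 without, with both treated libraries below both untreated ones (log2 difference -1.71, SE 0.48, adjusted p = 0.109). Tnfrsf4 was at 189 and 266 against 249 and 426 (adjusted p = 0.375) and Tnfrsf18 at 243 and 362 against 295 and 505 (adjusted p = 0.537), with overlapping groups. Tnfrsf8 was at 200 and 180 against 202 and 243 (adjusted p = 0.318), and its groups lay just apart.

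Groups did not overlap for 7 of the 10 members, which is near the 63.8% of all genes (36.7% higher, 27.1% lower) and so no result about the members. Of these, 5 ligands were higher and 2 receptors lower with TSA. The median difference was 0.98 over ligands and -0.46 over receptors, beside 0.02 over all genes. B cell markers summed to 16.1 to 42.0 FPKM with TSA against 4.45 to 6.46, and CD8 T and NK cell markers to 33.8 to 37.4 against 8.98 to 11.02. At the median share of B markers with TSA, 0.393% of their B level, B cell RNA would give 0.112 FPKM of Lta and 0.0472 of Tnf. Regulatory T cell markers summed to 545.1 to 576.3 with TSA and 805.4 to 818.4 without, with 5 and 4 of the 6 at 1 FPKM or more, and Foxp3 stood at 0.62 and 1.16 against 0.56 and 1.12. Pluripotent cell markers also summed higher with TSA, to 2.09 to 2.69 FPKM against 0.35 to 0.4. Marker sums in bulk RNA cannot tell more cells of a type from more marker RNA per cell. The part of B, CD8 T, NK or regulatory T cells in the ligand and receptor values was not tested.

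**Figure D3:**
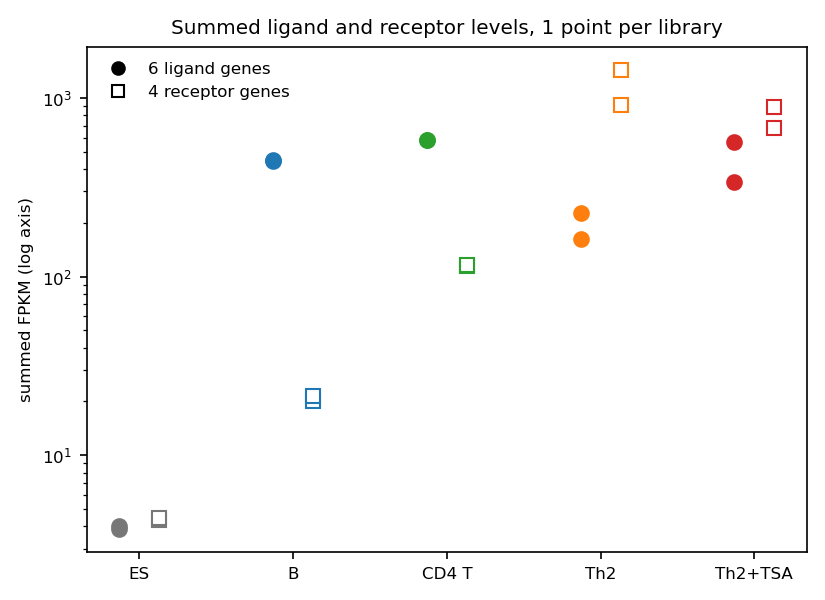
Summed FPKM (log axis) of the 6 ligand genes (filled circles) and the 4 receptor genes (open squares) in each library. Ligand sums exceed receptor sums in B and CD4 T cells, and receptor sums, at 910.7 and 1436 without TSA and 677 and 895.8 with it, exceed ligand sums in every Th2 library.

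Which of the sums was higher depended on the group. Ligand genes summed to 446 and 449.9 FPKM in B cells against 20.2 and 21.4 for receptors. In Th2 cultures ligands summed to 163 and 227 and receptors to 910.7 and 1436. With TSA ligands summed to 338.5 and 564.5 and receptors to 677 and 895.8. Ltb made up most of the ligand sum in B and CD4 T cells, and Lta was the highest ligand gene with TSA.

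The order of the groups differed between genes. Lta ran from Th2 with TSA through Th2, B and CD4 T to ES cells, with no overlap between neighbours. Tnf ran from Th2 with TSA through CD4 T, Th2 and B to ES cells, and Th2 and B overlapped. Ltb was highest in CD4 T and B cells, at a ratio of 1.06, and its Th2 groups overlapped. Cd40lg and Fasl had the order CD4 T, Th2 with TSA, Th2, B and ES, with an overlap of Th2 and B for Fasl. Tnfsf8 overlapped between Th2 with TSA and CD4 T cells. By their means Tnfrsf4, Tnfrsf9 and Tnfrsf18 ran from Th2 through Th2 with TSA, CD4 T and B to ES cells, but the libraries of both Th2 groups overlapped for Tnfrsf4 and Tnfrsf18. Tnfrsf8 was also highest in Th2 cultures, and its ES level was above that of B cells.

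Partner genes of the members were read from the rest of the family. CD30 and its ligand were both present in Th2 cultures, with Tnfsf8 at 14.8 ± 1.40 FPKM (SD, n = 2) and Tnfrsf8 at 222 ± 28.7. Of the ligands of the 3 other receptors, Tnfsf9, the CD137 ligand gene, stood at 8.35 ± 1.57 there, its highest mean of the 5 groups. Tnfsf4, the OX40 ligand gene, was at 0.67 ± 0.127, and Tnfsf18, the GITR ligand gene, was listed at 0 in all 4 Th2 libraries. Cd40, the receptor of CD40 ligand, was highest in B cells, at 118 FPKM, and at 0.06 ± 0.028 in Th2 cultures. Ltbr, the receptor of the Lta and Ltb heterotrimer, was highest in the ES libraries, which also held fibroblast RNA, at 8.81. Its level was 0.67 in B and 3.23 in CD4 T cells. Of the TNF receptors Tnfrsf1b stood at 30.1 in CD4 T cells, 32.3 ± 2.86 in Th2 and 43.1 ± 2.51 with TSA (limma adjusted p = 0.094 for TSA), and Tnfrsf1a at 26.8, 12.9 ± 0.361 and 17.9 ± 0.113.

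Fas, the death receptor gene for Fas ligand, fell in Th2 cultures to 5.15 ± 0.396 FPKM from 29.8 in CD4 T cells (log2 difference -2.33, limma adjusted p = 0.00312). It rose with TSA to 34.6 ± 2.36 (2.53, SE 0.11, adjusted p = 0.0251), which was the largest rise among the 22 tested receptors outside the set. Tnfrsf23, a decoy receptor, rose with TSA from 0.90 to 6.84 ± 2.57 (adjusted p = 0.0433) and Tnfrsf26 from 4.96 to 10.5 ± 0.735 (0.0351). These paralogs lie in 1 cluster and are similar, so that reads may be split between them. Eda2r, at 0.39 against 0.14, was the other upward call, named after its value was seen. Tnfrsf25, the death receptor of the ligand TL1A, fell from 7.71 ± 0.898 to 1.57 ± 0.127 (adjusted p = 0.0282).

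Of the 22 other receptors tested, 1 rose and 16 fell in Th2 cultures against CD4 T cells, with a median of -1.19. Over all genes 16.9% rose and 38.1% fell, with a median of -0.28. The one that rose, Tnfrsf10b, a death receptor for TRAIL, stood at 4.51 against 1.63 FPKM and is named because it was the only one. Cd27, a costimulator of naive T cells, fell from 243 to 12.3 ± 7.45 (log2 difference -4.33, limma adjusted p = 0.0142), Cd40 from 13.9 (-3.81, 0.00599), and Tnfrsf14, the receptor HVEM, from 87.4 to 8.66 ± 1.46 (-3.20, 0.00852). Cd40 was highest in B cells, at 118 FPKM, as were Tnfrsf13c (210) and Tnfrsf13b (141), which also fell. Cd27 and Tnfrsf14 were higher in CD4 T than in B cells. B cell markers stood at a median of 5.81% of their B level in CD4 T and 0.022% in Th2 libraries. The part of B cell RNA in these falls was not tested. Of 9 other ligands tested 2 rose and 4 fell (3 and 2 after either quantile or median-ratio scaling), with a median of -0.82, and the share that fell was near that of all genes. Those that rose were Tnfsf13b (BAFF), from 0.80 to 5.86 ± 1.44 (adjusted p = 0.0128), and Tnfsf9, from 2.50 (0.0368). Among those that fell were Tnfsf11 (RANK ligand), from 9.25 to 4.31 ± 0.283 (0.0241), and Tnfsf14 (LIGHT), from 11.7 to 6.21 ± 0.099 (0.0182). Tnfsf14 fell further with TSA, to 2.76 ± 0.396 (adjusted p = 0.036), the 1 call among the 9.

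Adaptors and NF-kB genes act downstream of the receptors. Of 21 adaptor and kinase genes 14 fell and 0 rose by limma against CD4 T cells (14 and 2 at an unadjusted p below 0.05), with a median of -1.02. After quantile normalization 12 fell and 2 rose, and after median-ratio scaling 11 and 2. Traf5 fell from 49.2 to 5.47 ± 0.651 FPKM (log2 difference -2.96, limma adjusted p = 0.00286), Traf1 from 88.6 to 19.7 ± 0.714 (-2.12, 0.00205) and Birc3, which encodes the ubiquitin ligase cIAP2, from 79.0 to 18.0 ± 0.948 (-2.07, 0.00349). Of 14 NF-kB genes 8 fell and 2 rose, with a median of -1.38. Beside these stand 38.1% of all genes that fell, 16.9% that rose and a median of -0.28. Nfkbia, the gene of the inhibitor IkBa, fell from 181 to 17.9 ± 3.71 (-3.28, 0.00755), Rel from 24.9 to 2.38 ± 0.672 (-2.95, 0.00545) and Tnfaip3, the gene of the feedback enzyme A20, from 51.2 to 6.28 ± 1.61 (-2.86, 0.00612). Nfkb1 rose from 92.7 to 127 ± 1.94 (0.45, 0.039), as did Fam105b (Otulin), a deubiquitinase gene, from 32.3 to 42.4 ± 1.19 (0.38, 0.0275). Of the 15 pathway genes named for this comparison 9 to 11 were called without any 1 Th2 or TSA library, and Nfkb1, Fam105b and Tnfsf9 lost their calls whichever of the 4 was left out.

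With TSA 9.26% of all genes rose and 4.14% fell. Of the 21 adaptors and kinases 2 rose, Map3k7, the kinase gene of TAK1, from 12.3 ± 1.38 to 24.1 ± 0.771 FPKM (limma adjusted p = 0.0371) and Tank from 13.8 ± 0.714 to 23.4 ± 0.82 (0.034). Another 2 fell, Birc3 to 10.7 ± 1.07 (0.0459) and Traf1 to 12.04 ± 0.0283 (0.0354). Of the 14 NF-kB genes Fam105b alone passed, upward, to 60.1 ± 1.54 (0.0383). Nfkbia was at 44.2 with TSA against 17.9 without, Nfkbiz at 11.2 against 4.66 and Tnfaip3 at 13.8 against 6.28, and none of the 3 passed (limma adjusted p = 0.0743, 0.0674 and 0.0666). Of the 10 pathway genes named for TSA, 0 were called by limma without Th2 library 1, Th2 library 2 or TSA library 2, and 1, Tnfrsf23, without TSA library 1.

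**Figure D4:**
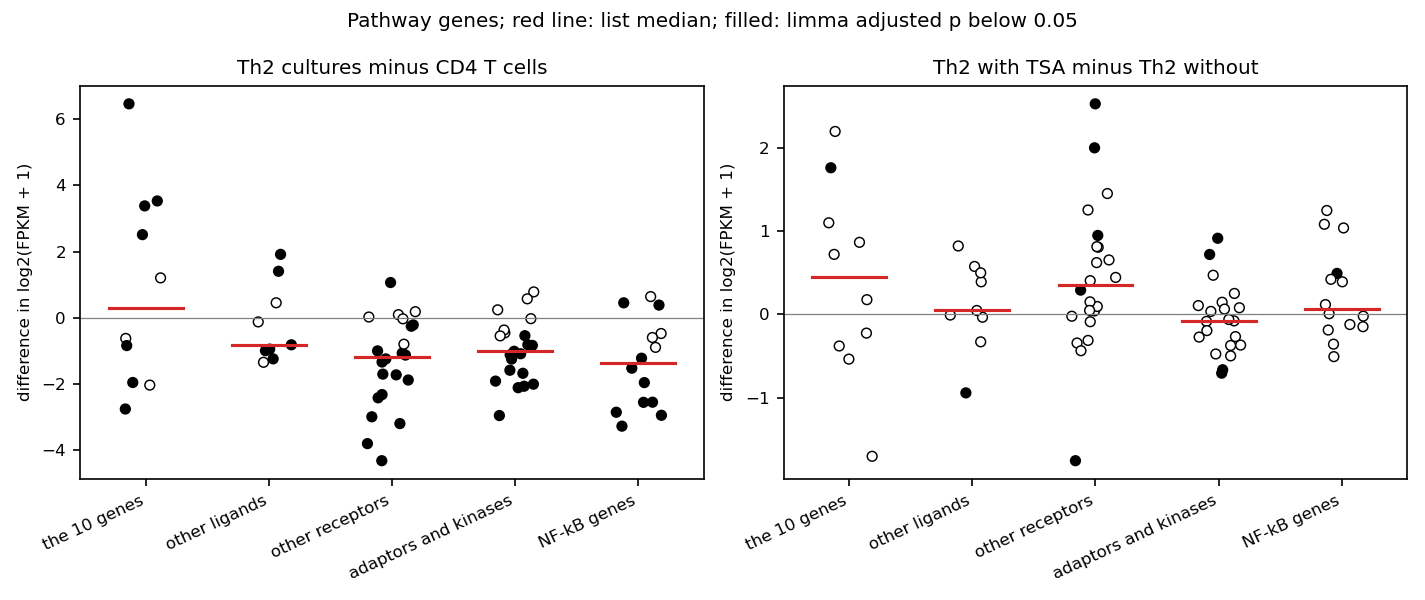
Difference in log2(FPKM + 1) of every tested gene of the 10-gene set and of 4 pathway lists, with the list median as a red line and filled points for a limma adjusted p below 0.05. Against CD4 T cells (left) the medians of the 4 other lists lie between -0.82 and -1.38, while the set spans -2.76 to 6.47. Scatter along the horizontal axis within a list has no meaning.

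Genes with the most similar levels were sought for each member by the root mean square difference of log2(FPKM + 1) over the 7 samples. Numbered gene models, Riken clones and unnamed rows were left out of the search. Tnfrsf8 was nearest to Nfil3 (0.48, Pearson r = 0.996 over the same 7 samples) and Lif (0.73). Tnfrsf4 (0.56) and Tnfrsf9 (0.79) were both nearest to Cst7, with Socs1 and Gata3 next, and Tnfrsf18 to Il2rb (0.77) and Igtp. Among ligands Fasl was nearest to Ifng (0.22) and Cd200r4, Lta to Ly6c2 (0.59) and Irf4, Tnf to H2-T10 (0.44) and Irgm2, and Ltb to Hmha1 (0.38) and Tbc1d10c. Cd40lg was nearest to Tnfsf8, another member, and Cd226, each at 0.65, and Tnfsf8 to Igsf23 (0.54) and Iigp1. These distances describe 7 samples, 3 of which are means of a near-copy pair, and carry no test.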

How the data were processed

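RNA-seq of 10 mouse libraries was used. The authors deposited 1 FPKM value per transcript row. The tools named are TopHat 1.3.2, Bowtie 0.12.8 and Cufflinks 2.0.2, with the build mm10, per the submitters' processing notes. Their settings, strand use and the depth of each library are unknown, so values carry no counting interval. FPKM summed to 405438.5 to 521872.1 per library, and 9652 to 11456 genes had an FPKM of 1 or more.

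The 21035 rows per file were collapsed to 19025 genes by the highest row, with sums and means as alternatives. RefSeq accessions of GRCm38.p6 named 315 rows without a symbol and 30 with a date as symbol. Of 1449 genes with several rows, 1326 repeat 1 value in the Th2 files and 51 in the others. Genes at 0 in all 4 Th2 or all 6 other libraries were not tested between Th2 and CD4 T cells.

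Groups came from the sample titles. The ES, B and CD4 T pairs were averaged because the libraries of each pair were close and their spread fell with level much as read sampling would make it. The depth implied by that spread differed by 1.29 to 1.76-fold between 4 bins of genes by level, against 6.12 and 9.08-fold in the Th2 groups. The true depth is unknown. limma 3.58.1 in R 4.3.3 was fitted to log2(FPKM + 1) over 7 samples in 5 groups, with a prior spread following mean expression and 2 residual degrees of freedom. For the lone CD4 T sample the spread of the Th2 groups was assumed. P-values were two-sided with Benjamini-Hochberg adjustment over all genes tested. The script was tested on simulated data. The log2(FPKM + 1) scale understates changes of low genes.

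The members and lists were chosen with earlier results of these data known. Named genes are the 10 members, up to 3 genes per direction of each pathway list among calls whose higher group reached 5 FPKM, and the 2 genes most like each member. Alternatives changed the row rule, pseudocount, scaling, filter, spread, samples in the fit and replicate block.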

Additional observations from a re-analysis of the deposited data

How the results depend on the processing

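Against CD4 T cells, Cd40lg, Tnfrsf8 and Tnfrsf4 were called in all 18 alternatives run. Of the member values there, 153 kept their side of the threshold, 10 passed it and 17 lost it. The ligands called lower were 5 with 10 separate libraries and 1 with only the groups compared. Over all genes 3236 were higher after quantile normalization and 3369 with separate libraries, where near-copy pairs count as replicates. With 1 library left out, 4 to 7 members were called (2 to 4 higher, 1 to 3 lower), and 942 to 2082 genes were higher and 2246 to 4708 lower.

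For TSA, 136 member values kept their side, 14 passed, 7 lost it and 3 reversed. Members called were 2 (2 higher) with a pseudocount of 5 or only the groups compared, 3 (3 higher) after quantile normalization or with a filter at 5 FPKM, 0 (0 higher) by limma without a filter, and 6 (5 higher, 1 lower) with separate libraries. Over all genes 570 were higher and 201 lower without a filter, and 3902 and 2872 with separate libraries, where near-copy pairs count as replicates. With 1 library left out, 0 members were called by limma (3 or 4 higher and 0 or 1 lower at an unadjusted p below 0.05), and 0 to 259 genes were higher and 0 to 14 lower. Ltb ranged from -0.293 to 0.649, below 0 without Th2 replicate 1 and at -0.203 without TSA replicate 2, and Tnfrsf18 from -0.764 to 0.006, above 0 without Th2 replicate 2.

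Replicate numbers pair only 2 libraries of each Th2 group, and no label says what a number marks. Same-numbered libraries deviated together (r = 0.577 over 12907 genes). With the replicate block 2 members were called for TSA, Tnfsf8 upward (adjusted p = 0.0485) and 1 lower, Tnfrsf9 (0.0485), while Tnf was not (limma adjusted p = 0.067). Over all genes that fit called 1235 higher and 661 lower. Against CD4 T cells the block added Ltb (0.009), which made 8. Beside that stand 2664 higher and 5383 lower of the 12367 genes tested, up from 2086 and 4709.

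By size, a pseudocount of 5 left 2 members for CD4 T against B cells (2 higher) and 2 for B against ES cells (2 higher). It left 147 and 127 of all genes higher and lower in CD4 T against B, 816 and 721 in CD4 T against ES, and 776 and 833 in B against ES cells. At a log2 difference of 1 these were 856 and 567, 2488 and 3012, and 2257 and 3221. The cause of these shifts was not tested. Depth is unknown, so values below about 1 FPKM cannot be given a counting error.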
